A study of Mus musculus with 2 samples.

Results

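The genes described here are 10 components of the tight junction, the seal between neighbouring epithelial or endothelial cells. They are the claudins Cldn1, Cldn3, Cldn4, Cldn5, Cldn7, Cldn8 and Cldn10, the transmembrane genes Ocln and F11r, and the scaffold gene Tjp1. The 10 genes were chosen by measured values of these same cells, out of 19320 features in the table, and all 10 were found. Their levels in cell classes, in cells sorted by reporter level and in the cells of each barcode ending are therefore a description, and no test is attached to them. Prostate tissue came from R26 mTmG/hAR:Osr1 Cre/+ mice of a mixed C57BL/6 and 129S1/SvImJ background. By design, Osr1-Cre recombination in these animals switches on a human androgen receptor transgene (hARtg) and membrane-bound green fluorescent protein (mGFP), each from its own allele. The study describes them as switched on together in cells with a history of Osr1-Cre activity. Cells of other lineages are meant to express neither, and both libraries carry the transgene. The series holds 1 PIN library (prostatic intraepithelial neoplasia, the precursor lesion) and 1 PCa library (adenocarcinoma of the prostate), both dissociated with collagenase and TrypLE and sequenced cell by cell from the 3′ end of each RNA. The features EGFP and ARQ were taken as mGFP and hARtg from their names.

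Claudins are small membrane proteins that form the strands of the tight junction, and the mix of claudins in a cell sets which ions and solutes can pass between cells. Sealing claudins such as those encoded by Cldn1, Cldn3 and Cldn4 tighten the barrier, while claudin-10 is known for forming paracellular ion pores. Occludin, encoded by Ocln, and junctional adhesion molecule A, encoded by F11r, sit in the same membrane domain, and ZO-1, encoded by Tjp1, ties them to the actin cytoskeleton. In the prostate, the luminal cells carry the apical junctions that separate the secretion from the tissue, and basal cells lie beneath them. Claudin-5 is the claudin of endothelium.

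Which barcode ending belongs to which tissue is given in neither labels nor headers, so no cell was assigned to PIN or PCa, and the endings are called set 1 and set 2. The cell numbers of the endings are close to those the study gives for its tissues, which was not used to assign them. Set 1 held 6332 cells and 134850345 UMIs (molecular identifiers, each standing for an RNA molecule), and set 2 held 9410 cells and 187280119 UMIs. The sets shared 67 barcodes. Clusters were named from marker genes within each set, which gave 1703 basal-like, 2778 luminal-like, 335 proximal, 40 endothelium-like and 1117 leukocyte-like cells in set 1. In set 2 the numbers were 360, 5670, 132, 170 and 235. Proximal cells are those of cluster 9, led by Msln, Ltf, Wfdc2 and Psca. In set 2 the luminal markers of this cluster summed higher (13090 CPM) than its proximal markers (6408 CPM). Its 10 leading genes there held Psca, a proximal marker, and no luminal marker. It therefore stayed unnamed in set 2 and is called proximal only as the same cluster. CPM are UMIs of a gene per 1000000 UMIs of the group. Brackets hold 95% intervals, which cover the error of counting and nothing else, as each set is 1 library. Leukocyte-like cells are given as a rough guide to free RNA and not as a measured background. In set 1 they were shallower than the epithelial classes (median 3825 UMIs), and in set 2 they were cluster 12 alone, led by Cd74 and C1qa. Other classes could lie below them, as basal-like cells of set 1 did for Cldn8 (1.30 against 3.18 CPM).

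Seen across classes, Cldn4, Cldn3 and Cldn7 were above the leukocyte-like level in each epithelial class, Cldn1 was a basal gene, Cldn8 and Cldn10 were luminal genes, and Cldn5 was endothelial. By order of the values alone, the class with the highest level was the same in both sets for 7 of the 10 genes and differed for Cldn3, Ocln and Tjp1. In set 2 the intervals of the highest and the next class overlapped for Cldn3, Ocln, Tjp1 and F11r, so their order there is within counting error. The share over all features was not computed for this count. Cldn1, a sealing claudin best known from stratified epithelium, reached 654 CPM (643 to 664) in set 1 and 237 CPM (219 to 257) in set 2 in its high class, the basal-like cells. Its luminal-like levels were 37.1 and 39.7 CPM. In proximal cells Cldn1 had 107 CPM in set 1 and 24.6 CPM in set 2, and in leukocyte-like cells 22.9 and 3.99 CPM. After each cell was thinned to 3000 UMIs, a Cldn1 UMI was present in 73.8% of basal-like cells of set 1 (71.6 to 75.8%), in 7.58% of luminal-like cells (6.62 to 8.63%) and in 2.13% of leukocyte-like cells (1.27 to 3.34%). Without thinning the shares were 90.8%, 25.5% and 4.03%, at median depths of 10862, 28991.5 and 3825 UMIs. Basal-like cells were thus the high class of Cldn1 in both libraries.

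**Figure D1:**
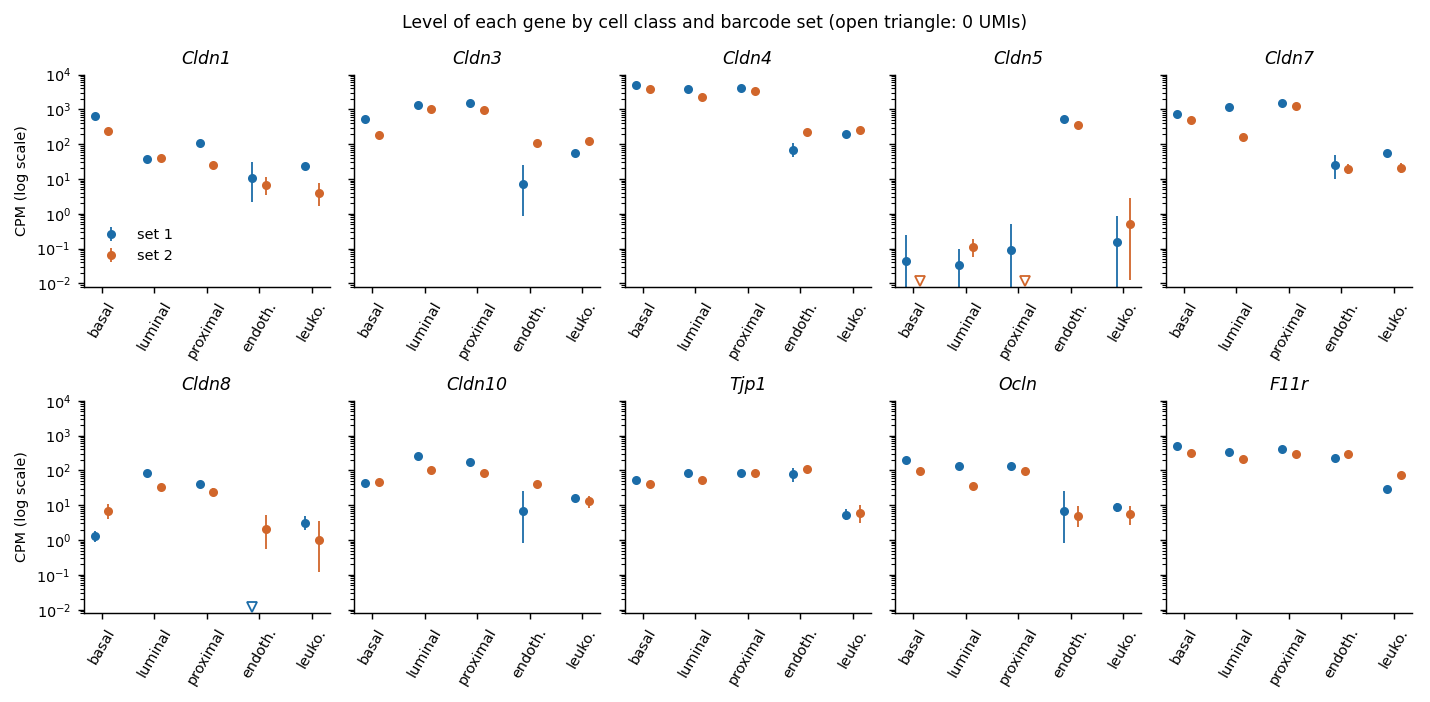
CPM of the 10 genes (log axis) in 5 cell classes; blue points are set 1, orange points set 2, bars are 95% Poisson intervals and open triangles mark 0 UMIs. Cldn5 reaches 537 and 351 CPM in endothelium-like cells and stays under 1 CPM in the other 4 classes.

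Cldn4, a sealing claudin that also binds a bacterial enterotoxin, was high in every epithelial class. Basal-like cells had 5134 CPM (5105 to 5164) in set 1 and 3779 CPM (3705 to 3853) in set 2, proximal cells 4101 and 3311 CPM, and luminal-like cells 3880 and 2190 CPM. The order basal-like, proximal, luminal-like held in both sets, with intervals that did not overlap. Leukocyte-like cells carried 190 and 247 CPM of Cldn4, and 19.1% (16.6 to 22.0%) and 18.7% (13.9 to 24.3%) of them held a UMI after thinning. Levels near these values cannot be told from free RNA by this guide.

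Cldn3, another sealing claudin, was lowest among the epithelial classes in basal-like cells, with 540 CPM (530 to 549) in set 1 and 188 CPM (171 to 205) in set 2. In the luminal-like class it had 1309 CPM (1301 to 1316) and 993 CPM (988 to 999), and in proximal cells 1571 CPM (1547 to 1595) and 971 CPM (933 to 1009). In set 2 the last 2 classes could not be told apart by counting error. Cldn7, which is known to sit along the lateral membrane as well as in the junction, was highest in proximal cells of both sets, at 1505 and 1261 CPM. The classes below them differed in order between the sets. Luminal-like cells of set 1 had 1204 CPM (1197 to 1211) against 719 CPM in basal-like cells, whereas in set 2 luminal-like cells had 159 CPM (157 to 161) against 481 CPM (454 to 508).

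Cldn8 and Cldn10 were luminal. Cldn8, a claudin known from the distal nephron, had luminal-like levels of 82.5 CPM (80.6 to 84.4) in set 1 and 33.3 CPM (32.3 to 34.3) in set 2. Proximal cells had 41.8 and 24.6 CPM. Basal-like cells held 29 and 18 UMIs of Cldn8 in all, or 1.30 and 6.83 CPM. Cldn10 reached 255 CPM (252 to 258) and 102 CPM (99.8 to 103) in the luminal-like class, 170 and 83.9 CPM in proximal cells, and 42.4 and 47.1 CPM in basal-like cells. Its leukocyte-like level was 16.4 CPM (13.4 to 19.9) and 12.96 CPM (8.46 to 19.0). Counting from the 3′ end cannot separate transcripts that differ at their start, so Cldn10 and Tjp1 values cover all their isoforms.

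Cldn5, the endothelial claudin, had 154 UMIs in the 40 endothelium-like cells of set 1 (537 CPM, 456 to 629) and 694 UMIs in the 170 of set 2 (351 CPM, 326 to 378). A Cldn5 UMI was seen in 37.5% and 48.8% of these cells, and in 0.0895% and 0.426% of leukocyte-like cells. After thinning the endothelium-like shares were 20% (8.44 to 36.9%) and 37.5% (29.8 to 45.7%). The other 4 classes had between 0 and 13 UMIs of Cldn5 per class and set. The 8 endothelial marker genes were all seen in the endothelium-like cells of both sets. Cldn3, Cldn4, Cldn7 and Cldn8 in the endothelium-like cells of set 2 were at 109, 220, 19.7 and 2.02 CPM, and their intervals overlapped those of leukocyte-like cells. Cldn10 was above the leukocyte-like level there, at 39.98 CPM (31.7 to 49.8).

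Among the other junction genes, F11r and Tjp1 were expressed in both epithelium and endothelium, while Ocln was epithelial. Ocln had 195 CPM (190 to 201) in basal-like cells of set 1, above luminal-like (132 CPM, 129 to 134) and proximal cells (133 CPM, 126 to 140), which overlapped. In set 2 it had 94.5 CPM (83.2 to 107) in basal-like and 97.8 CPM (86.1 to 111) in proximal cells, which overlapped too, and 36.0 CPM (34.9 to 37.1) in luminal-like cells. Endothelium-like cells held 2 and 10 Ocln UMIs, with CPM intervals that overlapped those of leukocyte-like cells. F11r stood at 496, 332, 400 and 223 CPM in basal-like, luminal-like, proximal and endothelium-like cells of set 1. In set 2 the same order of classes gave 308, 217, 299 and 304 CPM, and the basal-like, proximal and endothelium-like intervals overlapped. Tjp1 moved over a narrow range, from 40.6 CPM in basal-like cells of set 2 to 108 CPM (94.3 to 124) in endothelium-like cells of set 2, beside 5.41 and 5.98 CPM in leukocyte-like cells. Its 2 highest classes had overlapping intervals in each set.

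RefSeq (GRCm38.p6) holds a promoter, from 250 bases before to 50 bases after the start site, for 9 of the 10 genes, 12 promoters in all. Cldn8 had no entry. Cldn3 and Cldn4 are neighbours on chromosome 5 (134986214 to 134987476 and 134945123 to 134946934), while Cldn7 lies on chromosome 11 (69964779 to 69967886), Cldn10 on chromosome 14 (118787871 to 118874525) and Ocln on chromosome 13 (100496504 to 100552718). The promoters below are shown because Cldn3 and Cldn4, and likewise Cldn7 and Ocln, moved together across clusters, and because Cldn10 was higher in EGFP-high than in EGFP-low cells of each class compared. Each was searched on both strands for the E-box CAGGTG, a site read by repressors such as Snail, and for AGAACA, the core of the androgen response element. Capitals mark the E-box, in either orientation.
Cldn3, chr5:134985964-134986263, plus strand: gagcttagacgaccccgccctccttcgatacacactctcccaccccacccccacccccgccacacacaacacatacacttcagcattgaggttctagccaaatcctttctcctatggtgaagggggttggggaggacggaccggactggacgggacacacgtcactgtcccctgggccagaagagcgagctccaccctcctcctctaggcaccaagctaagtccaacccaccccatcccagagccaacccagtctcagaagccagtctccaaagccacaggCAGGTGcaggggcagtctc
Cldn4, chr5:134946885-134947184, minus strand: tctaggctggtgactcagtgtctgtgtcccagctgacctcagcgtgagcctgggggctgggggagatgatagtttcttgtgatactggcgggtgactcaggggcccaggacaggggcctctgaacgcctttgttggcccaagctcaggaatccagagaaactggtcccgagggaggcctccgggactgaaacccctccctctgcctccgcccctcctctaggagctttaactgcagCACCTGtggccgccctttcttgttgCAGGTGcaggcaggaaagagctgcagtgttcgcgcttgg
Cldn7, chr11:69965171-69965470, plus strand: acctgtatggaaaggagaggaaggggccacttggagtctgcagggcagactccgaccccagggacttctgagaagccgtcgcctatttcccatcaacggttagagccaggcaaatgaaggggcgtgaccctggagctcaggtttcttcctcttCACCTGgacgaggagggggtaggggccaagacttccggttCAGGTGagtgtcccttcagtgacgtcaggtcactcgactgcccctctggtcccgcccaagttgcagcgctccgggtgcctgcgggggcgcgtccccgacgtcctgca
Ocln, chr13:100552449-100552748, minus strand: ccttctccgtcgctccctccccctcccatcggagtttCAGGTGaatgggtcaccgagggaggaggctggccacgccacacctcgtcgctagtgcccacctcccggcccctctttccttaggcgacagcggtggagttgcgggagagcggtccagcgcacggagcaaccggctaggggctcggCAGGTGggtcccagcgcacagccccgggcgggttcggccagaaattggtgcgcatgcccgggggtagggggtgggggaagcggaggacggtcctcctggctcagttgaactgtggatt
Cldn10, chr14:118787621-118787920, plus strand: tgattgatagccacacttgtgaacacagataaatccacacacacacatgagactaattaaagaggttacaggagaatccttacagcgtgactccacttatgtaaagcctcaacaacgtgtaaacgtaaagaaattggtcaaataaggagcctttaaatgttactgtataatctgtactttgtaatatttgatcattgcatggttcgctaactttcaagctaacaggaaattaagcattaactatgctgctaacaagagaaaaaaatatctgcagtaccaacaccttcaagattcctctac
Cldn10, chr14:118854700-118854999, plus strand: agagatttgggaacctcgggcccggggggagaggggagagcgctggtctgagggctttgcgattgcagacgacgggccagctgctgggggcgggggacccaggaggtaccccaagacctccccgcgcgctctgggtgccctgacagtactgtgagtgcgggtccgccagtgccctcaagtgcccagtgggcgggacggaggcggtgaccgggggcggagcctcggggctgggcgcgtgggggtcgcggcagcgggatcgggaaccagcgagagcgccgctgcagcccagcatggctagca
Cldn7 and Ocln have a second promoter each. That of Cldn7 (chr11:69964529-69964828) holds no E-box and that of Ocln overlaps the one shown and shares a match with it, so neither is printed. An E-box was found in promoters of 5 of the 9 genes (Cldn3, Cldn4, Cldn7, Ocln and F11r), in 6 of 12 promoters with the shared Ocln match counted in both, against 20.2% of all 32851 promoters of the same length. AGAACA was in 0 of the 12, against 19.0% of all promoters, and both Cldn10 promoters held neither motif. A match describes letters in this window and is not a bound site.

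How the 10 genes varied with each other was described over 25 points, the clusters of each set with at least 50 cells, as Pearson correlations of log2(CPM + 10). The points share 2 libraries and differ in depth, so no p is given. They include leukocyte-like, fibroblast-like and endothelium-like clusters, and every gene but Cldn5 was lowest in a leukocyte-like or fibroblast-like cluster. A high r thus includes the gap between epithelial and other clusters, and correlations within epithelial clusters alone were not computed. Cldn7 and Ocln were the closest pair (r = 0.962), followed by Cldn4 and Ocln (0.930), Cldn3 and Cldn4 (0.908) and Cldn4 and Cldn7 (0.902). Tjp1 and F11r had r = 0.826. Cldn1 and Cldn10 had 0.01. Among 6857 features with at least 50 CPM in a cluster, the 3 most like Cldn7 were Epcam (0.985), Cxadr (0.982) and Cdh1 (0.980), and those most like Ocln were Cdh1 (0.975), Epcam (0.972) and Cxadr (0.970), all genes of epithelial adhesion. Cldn1 was most like Lgals7, Pkp1 and Lypd3 (0.922, 0.914 and 0.906), genes of stratified epithelium. For Cldn5 every correlation was set by 1 of the points, the endothelium-like cluster of set 2, since that of set 1 had under 50 cells, so none is given. Cldn3 was nearest to Rab15, Rab25 and Prss8 (0.955, 0.951 and 0.945), and Cldn4 to Foxa1, Ptprf and Ehf (0.967, 0.967 and 0.965). Cldn10 was less closely matched, with Fkbp5, a well-known androgen receptor target, first (0.838), then Sbp (0.817) and 5430419D17Rik (0.815). The best matches were Degs2 (0.932) for Cldn8, Nckap1 (0.946) for Tjp1 and Trim16 (0.936) for F11r.

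The next question was whether the genes differed with the reporter inside a class. A cell was called EGFP-high when its EGFP share was above the 95th percentile of the leukocyte-like cells of its own set (326 CPM in set 1, 3854 CPM in set 2) and EGFP-low when it was at or below their median (0 and 306 CPM). Cells between are called intermediate. The limits in set 2 are higher because leukocyte-like cells there carried 1042 CPM of EGFP, against 78.0 CPM in set 1. A gene was given a call when it had at least 10 CPM on 1 side, and calls are log2 ratios of at least 1, a 2-fold difference.

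In basal-like cells, Cldn3 and Cldn10 were higher by CPM in EGFP-high cells of both sets, and Cldn1 was lower. In set 1, 515 EGFP-high and 863 EGFP-low basal-like cells were compared, with median depths of 13200 and 9669 UMIs. Cldn3 was at 249 CPM (240 to 260) in EGFP-low, 256 CPM (242 to 271) in intermediate and 1059 CPM (1037 to 1082) in EGFP-high cells, a log2 ratio of 2.09 (2.02 to 2.15) of high against low. EGFP-low and intermediate cells overlapped and the EGFP-high cells lay apart. After thinning, 24.0%, 26.5% and 69.8% of the cells held a Cldn3 UMI, over 8.27% of leukocyte-like cells. Cldn10, the pore-forming claudin, was at 15.8 CPM (13.4 to 18.5), 18.2 CPM (14.5 to 22.6) and 89.1 CPM (82.6 to 95.9), a log2 ratio of 2.49 (2.24 to 2.75). The low and intermediate values of Cldn10 did not exceed its leukocyte-like level of 16.4 CPM by more than counting error.

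Set 2 had 158 EGFP-high and 94 EGFP-low basal-like cells. Cldn3 was at 101 CPM (78.4 to 128) in EGFP-low, 149 CPM (121 to 182) in intermediate and 253 CPM (226 to 282) in EGFP-high cells, a log2 ratio of 1.33 (0.95 to 1.73). Cldn10 was at 21.9, 19.8 and 74.3 CPM, from 15, 13 and 96 UMIs, a log2 ratio of 1.76 (0.97 to 2.65). The direction of both genes was the same as in set 1, with wide intervals for Cldn10. After thinning, shares of cells with a UMI overlapped between EGFP-low and EGFP-high cells of set 2. They were 23.1% (14.9 to 33.1%) and 34.9% (27.3 to 43.0%) for Cldn3. For Cldn10 they were 5.5% (1.8 to 12.4%) and 11.2% (6.7 to 17.3%). The EGFP-low level of Cldn3 in set 2 lay at or under its leukocyte-like level of 122 CPM (107 to 138).

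Cldn1 went the other way, at 741 CPM (724 to 758) in EGFP-low, 775 CPM in intermediate and 476 CPM (461 to 492) in EGFP-high cells of set 1, a log2 ratio of -0.64 (-0.69 to -0.58). In set 2 it was at 285, 264 and 199 CPM, a log2 ratio of -0.52 (-0.79 to -0.24). After thinning, a Cldn1 UMI was present in 79.2% of EGFP-low and 59.6% of EGFP-high cells of set 1. In set 2 the shares were 41.8% (31.5 to 52.6%) and 40.8% (32.9 to 49.1%), so the lower level there was not seen as fewer cells with a UMI. Cldn7 differed by 0.44 (0.39 to 0.49) in set 1 and 0.07 (-0.13 to 0.26) in set 2. Cldn4 was nearly level, at 0.04 (0.02 to 0.06) and 0.19 (0.12 to 0.26), and the intervals of Ocln, F11r and Tjp1 held 0 in set 2. Of the 10 genes, 8 could be called in set 1, and 2 of them, Cldn3 and Cldn10, were at least 2-fold higher and 0 at least 2-fold lower. Among all 6825 features 2.65% were higher and 2.71% lower by that much. In set 2, 3 of 9 were higher and 0 lower, where 5.81% of 7191 features were higher and 3.85% lower. The third gene was Cldn8, with 14 against 2 UMIs and a log2 ratio of 1.89 whose interval ran from -0.23 to 5.07.

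Other markers differed between these cells too. The summed basal markers were at 9068 CPM in EGFP-high and 16480 CPM in EGFP-low basal-like cells of set 1, and the luminal markers at 2481 and 3589 CPM. In set 2 the basal sums were 9294 and 11600 CPM and the luminal sums 5011 and 4161 CPM. All 6 basal and 9 luminal markers were seen on each side. Their part in the claudin ratios was not tested. At resolution 1.0 the basal-like cells of set 1 fell into clusters of 1022 and 681 cells, with basal sums of 16701 and 9998.5 CPM. EGFP was among the 10 leading genes of the smaller one, and the claudin ratios were not computed within these clusters. hARtg was at 739 CPM in EGFP-high and 109 CPM in EGFP-low basal-like cells of set 1, and at 797 and 353 CPM in set 2. EGFP-low basal-like cells of set 1 held 0 EGFP UMIs, yet 24.9% of them held an hARtg UMI. Leukocyte-like cells had 17.0 CPM of hARtg in set 1 and 162 CPM in set 2. EGFP-low cells are therefore not called hARtg-negative here.

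**Figure D2:**
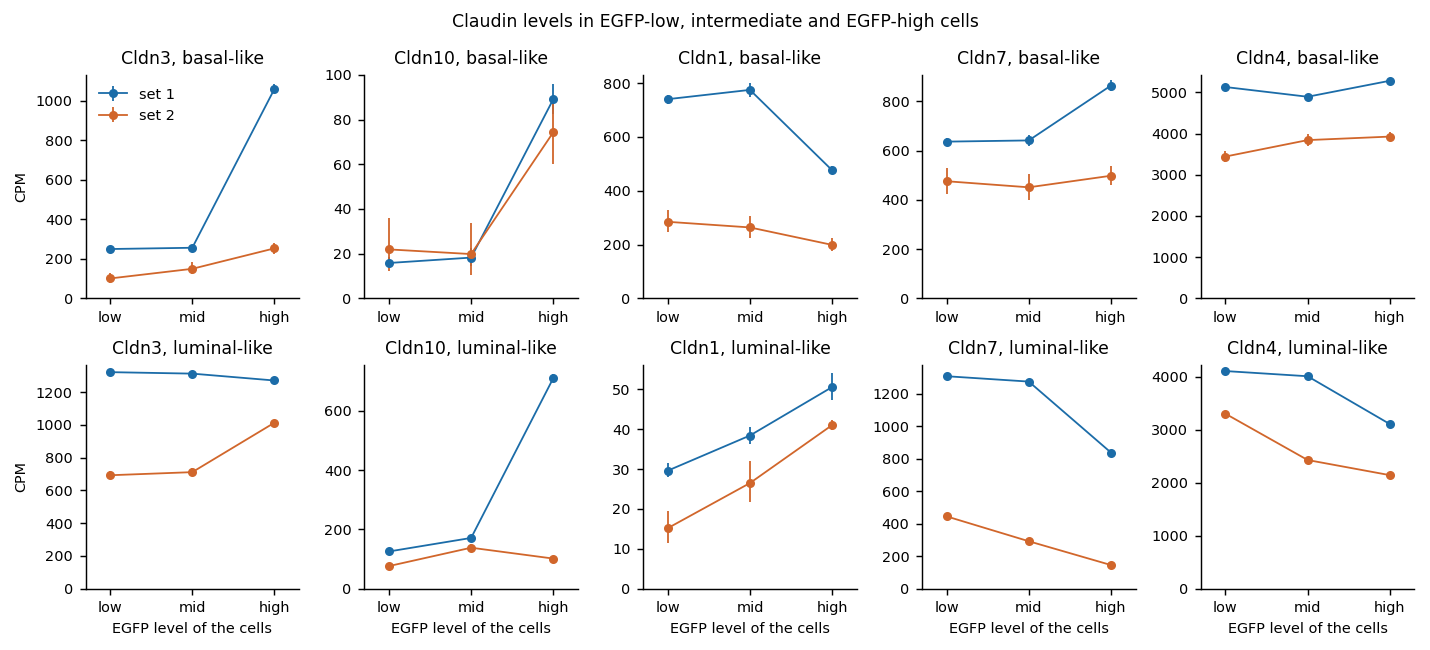
CPM of 5 claudins in EGFP-low, intermediate (mid) and EGFP-high cells of the basal-like (top) and luminal-like (bottom) classes, by set; bars are 95% Poisson intervals and lines only join the 3 levels. In basal-like cells of set 1 Cldn3 stays near 250 CPM in EGFP-low and intermediate cells and reaches 1059 CPM in EGFP-high cells.

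Luminal-like cells gave a mixed picture over the whole class. In set 1, 464 EGFP-high cells were set against 1340 EGFP-low cells. Cldn10 was at 125 CPM (122 to 129) in EGFP-low, 171 CPM in intermediate and 710 CPM (698 to 723) in EGFP-high cells, a log2 ratio of 2.50 (2.46 to 2.55). It was the only 1 of 9 callable genes past 2-fold, with 0 lower, against 3.73% of 7587 features higher and 2.53% lower. Cldn1 was higher by 0.77 (0.64 to 0.90) and Cldn8 by 0.30 (0.22 to 0.39). Cldn7 had a log2 ratio of -0.64 (-0.67 to -0.62), Tjp1 -0.54, F11r -0.43, Cldn4 -0.40 and Ocln -0.40. Krt8 and Krt18, the keratins of the class, were also lower, at -1.005 and -1.07, and the proximal markers summed to 6553 CPM in EGFP-high and 3433 CPM in EGFP-low cells. Median depths were 34817.5 and 26047 UMIs. The part of these in the ratios was not tested.

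In set 2 nearly all luminal-like cells were EGFP-high (5282 cells), and 173 were EGFP-low. Cldn7 was at 444 CPM (423 to 466) in EGFP-low, 291 CPM (274 to 309) in intermediate and 145 CPM (142 to 147) in EGFP-high cells, a log2 ratio of -1.62 (-1.69 to -1.55). Ocln followed the same order, at 99.0, 65.6 and 32.8 CPM, a log2 ratio of -1.59 (-1.75 to -1.44). Cldn8 was at 69.4, 52.2 and 31.4 CPM (-1.15, -1.33 to -0.96), and Cldn1 at 15.2, 26.5 and 41.0 CPM (1.44, 1.07 to 1.83). Cldn10 was highest in intermediate cells, at 75.9, 138 and 101 CPM in EGFP-low, intermediate and EGFP-high cells, a log2 ratio of 0.42 (0.25 to 0.59) of high against low. Cldn3 differed by 0.55, F11r by 0.43, Tjp1 by -0.47 and Cldn4 by -0.62. Of 9 callable genes 1 was past 2-fold higher and 3 lower, where 13.0% of all 7811 features were higher and 17.0% lower, so a large part of the table differed between these cells. Basal markers summed to 432 CPM in EGFP-low and 35.4 CPM in EGFP-high cells, and luminal markers to 36090 and 17220 CPM. Their part was not tested.

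The EGFP-high and EGFP-low luminal-like cells were in different clusters. In set 1, 231 of the EGFP-high cells lay in cluster 1, 91 in cluster 10 and 72 in cluster 3, while 639 EGFP-low cells lay in cluster 3 and 368 in cluster 5. In set 2, EGFP-low cells were mostly of cluster 5 (136 cells), and EGFP-high cells of clusters 0, 4 and 6 (3238, 1203 and 743 cells). Comparisons within clusters, chosen after seeing the data, were possible where each side held 50 cells. Cldn10 was higher in EGFP-high cells in each of them. In cluster 3 of set 1, led by Clu and Krt6a, it was at 94.6 CPM in 72 EGFP-high cells and 2.66 CPM in 639 EGFP-low cells, a log2 ratio of 5.15 (4.71 to 5.62). In cluster 10 of set 1, led by Spink1, Wfdc3 and Msmb, it was at 1065 and 474 CPM (1.17, 1.09 to 1.25). In cluster 5 of set 2, led by 9530053A07Rik, Ren1 and Pbsn, it was at 26.8 and 5.32 CPM (2.33, 1.49 to 3.24), from 42 and 17 UMIs. Cldn10 was thus higher by more than 2-fold within clusters of both sets, also where the whole class of set 2 gave 0.42. The EGFP-low values of cluster 3 and of cluster 5 lay under the leukocyte-like Cldn10 levels, 16.4 CPM in set 1 and 12.96 CPM in set 2. Such values cannot be told from free RNA by this guide, so the sizes of the ratios 5.15 and 2.33 are uncertain beyond their intervals. Other markers moved too. In cluster 10 the basal markers summed to 549 CPM in EGFP-high and 102 CPM in EGFP-low cells, and the luminal markers to 38830 and 75070 CPM. Fibroblast markers summed to 273 and 62.0 CPM in cluster 3, and seminal vesicle markers to 313 and 46.7 CPM in cluster 5 of set 2. Their part in the ratios was not tested.

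Differences in Cldn7 and Ocln were smaller within clusters than over the whole class. Cldn7 had log2 ratios of -0.23 (-0.28 to -0.18) in cluster 3, 0.05 (-0.04 to 0.14) in cluster 10 and -0.19 (-0.33 to -0.05) in cluster 5 of set 2. Ocln had -0.09, 0.05 and -0.21 in the same clusters, each with an interval that held 0. Cldn1 was higher in clusters 3 and 10 (1.61, 1.42 to 1.79, and 0.90, 0.46 to 1.35) and lower in cluster 5 of set 2 (-0.86, -1.76 to -0.04), where it had 16 and 59 UMIs.

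**Figure D3:**
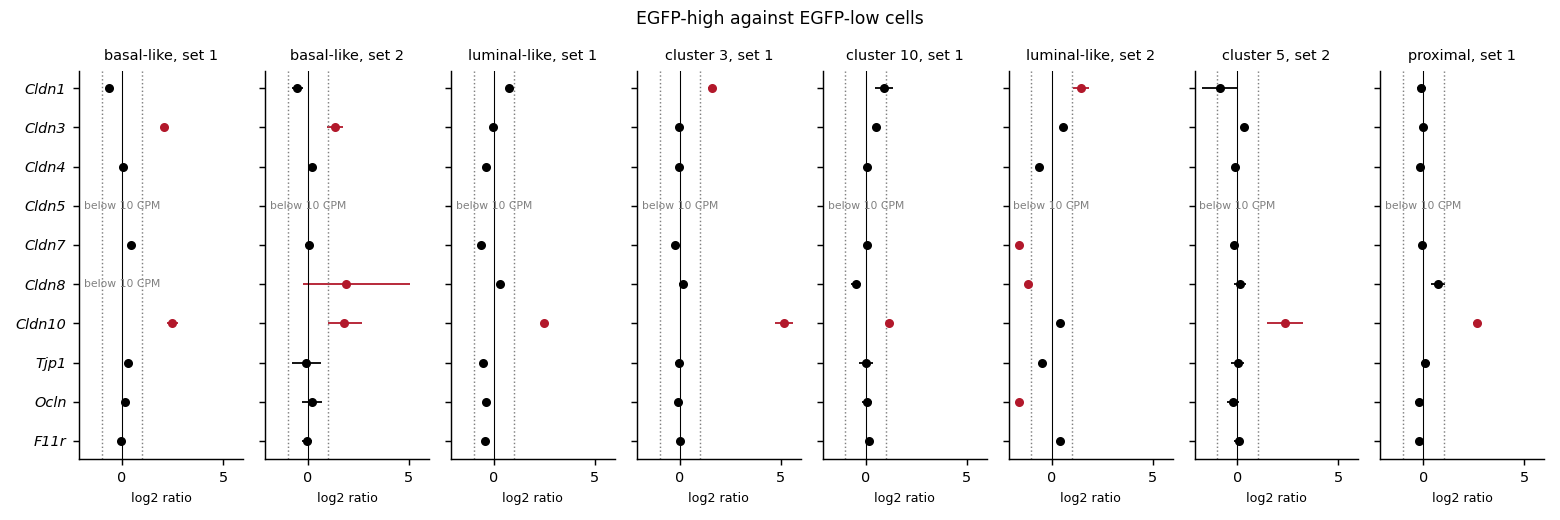
Log2 ratios of CPM, EGFP-high against EGFP-low cells, for the 10 genes in 5 class comparisons and in luminal clusters 3 and 10 of set 1 and 5 of set 2; bars are 95% intervals, dotted lines mark 2-fold and red points are past it. Cldn10 is to the right of 0 in all 8 panels, while the Cldn7 and Ocln points of luminal-like cells of set 2 (-1.62 and -1.59) move to -0.19 and -0.21 within cluster 5.

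Proximal cells of set 1 (92 EGFP-high, 139 EGFP-low) differed in Cldn10, at 66.5 CPM (58.2 to 75.6) in EGFP-low, 77.4 CPM in intermediate and 415 CPM (392 to 439) in EGFP-high cells, a log2 ratio of 2.64 (2.44 to 2.85). Cldn8 was next, with 38.1 and 62.8 CPM (0.72, 0.39 to 1.05). The remaining callable genes were between -0.23 for Ocln and 0.10 for Tjp1. Of 9 callable genes 1 was past 2-fold higher and 0 lower, against 2.02% and 2.3% of 7394 features. Cldn3, which separated EGFP-high from EGFP-low basal-like cells, had -0.03 (-0.09 to 0.02) here. The proximal markers summed to 29680 CPM in EGFP-high and 14830 CPM in EGFP-low cells, and their part was not tested. Set 2 had 15 EGFP-low proximal cells, too few for the comparison.

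The sets themselves were compared next, as libraries and not as tissues. In basal-like cells, set 2 was lower for Cldn3 (188 against 540 CPM, log2 ratio -1.52, -1.66 to -1.40), Cldn1 (237 against 654 CPM, -1.46, -1.58 to -1.35) and Ocln (94.5 against 195 CPM, -1.05, -1.24 to -0.86). These were 3 of 8 callable genes, with 0 higher, against 5.66% of 6963 features lower and 3.98% higher. The Ocln ratio was -0.97 with every cell weighing the same, short of 2-fold. In subsets chosen after seeing the data, the differences were also present among EGFP-high cells alone, at -2.07 for Cldn3, -1.26 for Cldn1 and -1.19 for Ocln, and among EGFP-low cells alone, at -1.31, -1.38 and -1.25. The EGFP limits differ between the sets, so these subsets did not hold the reporter equal. Cldn7, F11r, Cldn4 and Tjp1 were lower by less, at -0.58, -0.69, -0.44 and -0.41, and Cldn10 had 0.15 (-0.13 to 0.42). The median depth was 5478 UMIs in set 2 and 10862 UMIs in set 1, and Krt5, a defining basal keratin, was itself lower (-1.55) while Krt14 was nearly level (-0.06). Proximal markers summed to 2346 CPM in set 2 and 7855 CPM in set 1. Their part was not tested.

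Luminal-like cells showed the widest differences. Set 2 was lower for Cldn7 (159 against 1204 CPM, -2.92, -2.94 to -2.90), Ocln (36.0 against 132 CPM, -1.87, -1.92 to -1.82), Cldn10 (102 against 255 CPM, -1.33, -1.36 to -1.30) and Cldn8 (33.3 against 82.5 CPM, -1.31, -1.37 to -1.26). These were 4 of 9 callable genes, with 0 higher, against 19.2% of 7955 features lower and 10.9% higher. The Cldn10 ratio was -0.90 with clustering without integration, short of 2-fold. Cldn4 (-0.83), Tjp1 (-0.63), F11r (-0.61) and Cldn3 (-0.40) were lower by less, and Cldn1 was at 0.10 (0.04 to 0.16). Most luminal-like cells of set 1 were of clusters 3, 5 and 10, and those of set 2 of clusters 0, 4 and 6. The classes therefore hold different clusters. Clusters 1 and 3, luminal-like in set 1, stayed unnamed in set 2 (1992 and 182 cells), so they enter these ratios on the set 1 side only. Cluster 1 held 231 of the 464 EGFP-high luminal-like cells of set 1, and what its absence from set 2 adds to the ratios was not tested. Proximal markers summed to 423 CPM in set 2 and 4067 CPM in set 1, basal markers to 59.3 and 952 CPM, and seminal vesicle markers to 343 and 1.05 CPM, and their part was not tested. Comparisons within clusters and within EGFP levels were again chosen after seeing the data. Where a cluster had at least 50 cells and a luminal-like name in both sets, as clusters 5 and 11 had, Cldn7 was still lower in set 2, at 411 against 957 CPM in cluster 5 (-1.22, -1.28 to -1.16) and 372 against 1301 CPM in cluster 11 (-1.80, -1.92 to -1.69). Ocln had -0.55 and -0.98 there, F11r -0.82 and -1.37, Cldn8 -0.66 and -0.22, and Cldn10 -0.68 and -0.30. Among EGFP-high luminal-like cells alone, Cldn7 had -2.53, Ocln -1.69, Cldn10 -2.81 and Cldn8 -1.75. Among EGFP-low cells alone, Cldn7 had -1.56 and Ocln -0.50, Cldn10 -0.72 and Cldn8 -0.30. Cldn7 was thus more than 2-fold lower in set 2 in each of these 4 subsets, while Ocln, Cldn10 and Cldn8 passed 2-fold among the EGFP-high cells and not in the other 3. The EGFP limits differ between the sets, so the subsets by EGFP level did not hold the reporter equal. In EGFP-low luminal-like cells hARtg was at 274 CPM in set 2 and 24.9 CPM in set 1. The clusters were not alike in other markers, set 2 against set 1. In cluster 11 basal markers summed to 117 and 1658 CPM and luminal markers to 40270 and 13850 CPM, and in cluster 5 proximal markers to 197 and 1538 CPM. Their part was not tested. Among the luminal clusters of set 2 with at least 50 cells, Cldn7 ranged from 120 CPM in cluster 0 to 411 CPM in cluster 5, below the lowest value of set 1, 598 CPM in cluster 10. In clusters 1 and 3 of set 2, unnamed there, it had 183 and 411 CPM. Cldn10 varied widely across luminal clusters, with 872 CPM in cluster 1 and 10.7 CPM in cluster 3 of set 1, and 401 CPM in cluster 11 and 13.5 CPM in cluster 5 of set 2.

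**Figure D4:**
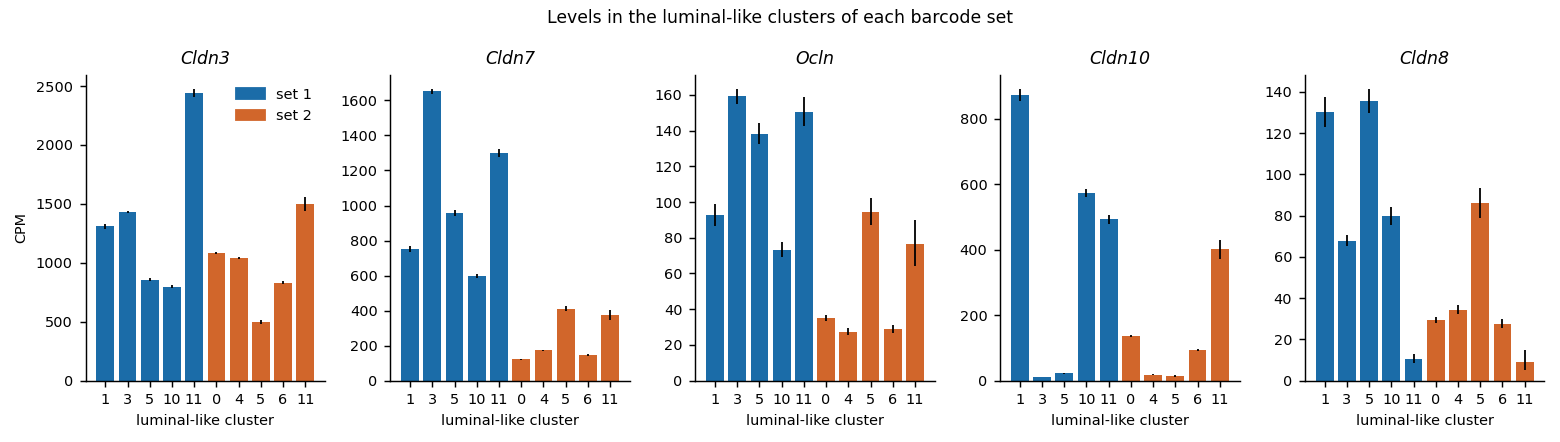
CPM of Cldn3, Cldn7, Ocln, Cldn10 and Cldn8 in the luminal-like clusters with at least 50 cells, set 1 in blue and set 2 in orange, with 95% Poisson intervals; the vertical scale differs between panels. The Cldn7 bars of set 2 (120 to 411 CPM) all lie below those of set 1 (598 to 1652 CPM).

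In proximal cells, set 2 was lower for Cldn1 (24.6 against 107 CPM, -2.12, -2.51 to -1.76) and Cldn10 (83.9 against 170 CPM, -1.01, -1.22 to -0.81), 2 of 9 callable genes with 0 higher, against 3.88% of 7690 features lower and 5.06% higher. Cldn8 had -0.76, Cldn3 -0.69, Ocln -0.45, F11r -0.42 and Cldn7 -0.26, and Tjp1 had -0.06 (-0.28 to 0.15). Cldn7, which differed most between the luminal-like cells, was thus at similar levels here. The proximal markers themselves summed to 6408 CPM in set 2 and 17910 CPM in set 1, and basal markers to 1272 and 4082 CPM. Seminal vesicle markers summed to 134 and 0.188 CPM, and smooth muscle markers to 32.7 and 1.03 CPM. Their part was not tested.

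In endothelium-like cells, Cldn5 had a log2 ratio of -0.61 (-0.87 to -0.35), set 2 against set 1, Tjp1 0.50 (-0.14 to 1.20) and F11r 0.45 (0.07 to 0.84). Cldn3, Cldn10 and Cldn4 were past 2-fold higher, at 3.96, 2.52 and 1.66, from only 2, 2 and 20 UMIs in set 1. They were 3 of 8 callable genes, with 0 lower, against 16.0% of 8177 features higher and 9.49% lower. In the same cells Krt8 had 3.32, EGFP 4.50 and the luminal markers summed to 1928 CPM in set 2 and 366 CPM in set 1, where 2 of the 9 were at 0. The set 2 levels of Cldn3 and Cldn4 overlapped the leukocyte-like levels of that set. With called doublets kept, the comparison rested on 48 cells of set 1 and the ratios were 0.39 for Cldn3 and -0.98 for Cldn4.

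**Figure D5:**
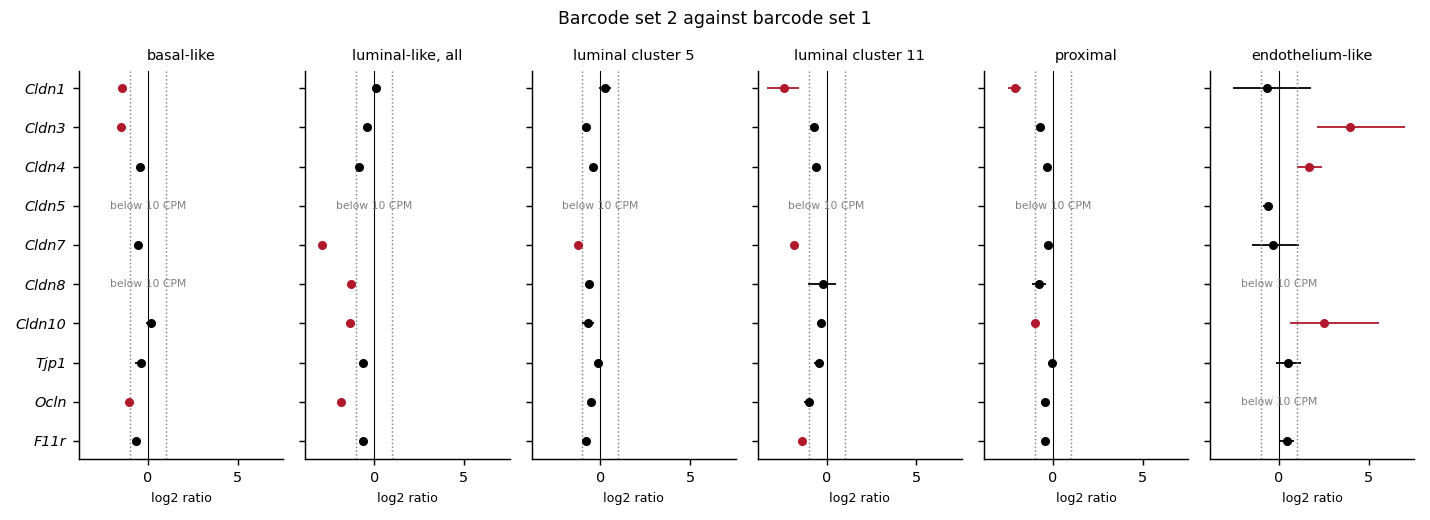
Log2 ratios of CPM, set 2 against set 1, for the 10 genes in 4 classes and in luminal clusters 5 and 11; bars are 95% intervals, dotted lines mark 2-fold and red points are past it. Cldn7 is past 2-fold lower in luminal-like cells (-2.92) and in both clusters (-1.22 and -1.80) and not in proximal cells (-0.26).

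The wider pathway was followed in a list of 52 other tight junction genes, of which 47 were in the table. Between EGFP-high and EGFP-low cells, 0 of 23 callable genes in basal-like, 0 of 29 in luminal-like and 0 of 29 in proximal cells of set 1 were past 2-fold in either direction. Among all features 2.65% were higher and 2.71% lower in basal-like, 3.73% and 2.53% in luminal-like, and 2.02% and 2.3% in proximal cells. Counts of 0 in lists this short are close to those shares. The extremes in basal-like cells of set 1 were Marveld3, a relative of occludin, at 0.77 and Mpdz, a multi-PDZ scaffold, at -0.83. In basal-like cells of set 2, 1 of 26 was higher and 3 lower, beside 5.81% and 3.85% of all features, and none of the 4 had 20 UMIs on a side. In luminal-like cells of set 2, 4 of 28 were higher and 4 lower, close to the 13.0% and 17.0% of all features. The named ones are therefore given as values and not as a property of the list. Amot, an angiomotin of the junctional polarity complex, had 3.15, Pard6g, a polarity adaptor, 1.90, and Ybx3, the ZO-1 associated factor, 1.59. Magi1, a junctional scaffold, had -1.75, and Cxadr, an adhesion receptor of the junction, -1.47, the sign that Cldn7 and Ocln also had.

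Between the sets, 0 of 24 callable genes of the list were higher and 1 lower in basal-like cells of set 2, beside 3.98% and 5.66% of all features, and the lower gene was Cxadr (-1.03). In luminal-like cells 3 of 29 were higher and 10 lower, beside 10.9% and 19.2% of all features, and Cxadr (-2.45) and Prkci, an atypical protein kinase C of the polarity complex (-1.62), were among the lower ones. The higher ones were Amot (1.93), Pard6g (1.11) and Amotl1, another angiomotin (1.05). The median over the callable genes of the list was -0.62, that over the callable members -0.83 and that over all 7955 features -0.19. In proximal cells 1 of 29 was higher, Amot (1.03), and 0 lower, beside 5.06% and 3.88% of all features. In endothelium-like cells 4 of 22 were higher, close to the 16.0% of all features, and 1 lower, beside 9.49%. The lower gene was Jam2, an endothelial junctional adhesion molecule (-1.52), with Cldn15 at 2.44 from 112 against 3 UMIs.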

How the data were processed

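Single cells of 1 PIN and 1 PCa library were analysed, 15742 cells and 19320 features in 1 table. According to the submitters' processing notes, reads were processed with Cell Ranger 3.1.0 against mm10, and the methods add the hARtg and mGFP sequences and a filter against empty droplets, multiplets and high mitochondrial content. What the authors deposited were values on the natural log scale, ln(1 + 10000 × UMIs / total). Whole UMIs were recovered for 100% of the values above 0 (tolerance 0.001). Doublets were scored with Scrublet (scanpy 1.11.5); its automatic limits called 0 cells, and a limit of 0.25, set after scores were known, removed 155 and 175. The other 15412 cells were integrated and clustered with Seurat 5.3.0 in R 4.3.3 (20 dimensions, 2000 features, resolution 0.5), without the members, the listed pathway genes, EGFP and ARQ, into 17 clusters. A cluster took, within its set, the class with the highest summed marker CPM when 3 markers were seen in 25% of its cells. It stayed unnamed when it had under 20 cells, when markers of another class led its 10 leading genes, or when it was shallow without a marker of its own among them. Cluster 1 of set 2, led by Svs5 and Svs3a (1992 cells), stayed unnamed by this rule, and no fibroblast-like or smooth muscle-like class was named in both sets. UMIs were summed over cells, with exact Poisson, Clopper-Pearson and conditional binomial intervals at 95% that cover counting error only. In ratios, 3 UMIs stood in for a sum of 0. Cells under 3000 UMIs were left out of thinned shares. The ratio code was tested on simulated data. No p-values were computed, since each group was 1 library. All 10 members are named. Other pathway genes are named where among the 3 highest or 3 lowest of their list with at least 20 UMIs on 1 side. 1 of these genes is not reported here. The members and lists were chosen with earlier results of these data known.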

Additional observations from a re-analysis of the deposited data

Results flagged for a closer look

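For 3 genes the EGFP-high against EGFP-low log2 ratios of luminal-like cells had opposite signs in the sets, each with a counting interval that did not hold 0. The difference between the sets was not tested, since each is 1 library. The share over all features was not computed for this count, so it does not set these genes apart. Cldn8 had 0.30 in set 1 and -1.15 in set 2. F11r had -0.43 in set 1 and 0.43 in set 2. Cldn3 had -0.057 in set 1 and 0.55 in set 2. Within single clusters F11r had 0.00 (cluster 3) and 0.18 (cluster 10) in set 1 and 0.06 in cluster 5 of set 2.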

How the results depend on the processing

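No paired analysis was possible because there was 1 library per group and the columns carry no replicate number. No replicate could be left out for the same reason. Of 466 log2 ratios of the members recomputed with other settings of doublet removal, integration, clustering, depth and EGFP split, 448 kept their sign. By the counting interval of the main value, 366 stayed inside it and 95 moved outside it. Another 5 turned sign where that interval did not hold 0, and the largest shift was 3.57. Of 380 recomputed levels, 117 moved outside their interval, so these intervals do not cover the choice of settings. The number of members past 2-fold between EGFP-high and EGFP-low proximal cells of set 1 was 2 in place of 1 with called doublets kept and with every cell weighing the same. Between the sets it was 1 in place of 2 in proximal cells at resolution 1.0 and with every cell weighing the same, and 5 in place of 3 in endothelium-like cells with called doublets kept. At resolution 1.0 the proximal class also took in a cluster with 35 cells of set 1, led by Jchain, Mzb1 and Cd79a. These genes led a leukocyte-like cluster at resolution 0.5. All proximal values at resolution 1.0 include that cluster. Kept doublets also turned Cldn4 in endothelium-like cells to -0.98. The Cldn1 ratio between the sets in luminal-like cells, 0.10, turned to -0.12 with doublets kept, -0.23 without integration, -2.35 within cluster 11, -0.30 in EGFP-high and -0.96 in EGFP-low cells. Cldn7 in proximal cells of set 1 turned from -0.07 to 0.009 at resolution 1.0, with an interval that held 0. Cldn8 in luminal-like cells of set 1 turned from 0.30 to -0.082 with 1 or more EGFP UMIs against 0. The comparisons within clusters were chosen after seeing the data. Within cluster 10 of set 1, Cldn3 had 0.53, Cldn4 0.086, Cldn7 0.05, Cldn8 -0.48, Tjp1 0.016, Ocln 0.053 and F11r 0.18, each opposite in sign to the whole class. The intervals of Cldn7, Tjp1 and Ocln held 0 there. Within cluster 5 of set 2, Cldn1 had -0.86, Cldn8 0.13 and Tjp1 0.012, and the intervals of Cldn8 and Tjp1 held 0. The causes were not tested. The Cldn3 ratio of basal-like cells lay between 1.61 and 2.25 in set 1 and between 0.96 and 1.57 in set 2 over the alternatives, and that of Cldn10 between 1.99 and 2.67 and between 1.08 and 2.23. With 1 or more EGFP UMIs against 0, the Cldn10 ratio of set 1 was 1.48 in place of 2.50 in luminal-like and 1.72 in place of 2.64 in proximal cells. The splits at EGFP UMIs against 0 gave no value in set 2, where under 50 cells of a class had 0, and without integration no proximal class was named, so these were not run. Depth limits Cldn8 in basal-like cells and the epithelial genes in the 40 endothelium-like cells of set 1.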
